A study of Mus musculus with 12 samples.

Results

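The S100 genes encode a family of small calcium-binding proteins, and 5 of them, S100a4, S100a6, S100a10, S100a11 and S100a13, were followed across sorted invariant natural killer T (iNKT) cells of mouse lung and thymus. They are 5 of the 24781 gene rows of the deposited expression table, taken by symbol, and all 5 were among the 5138 genes tested. The genes were chosen by their measured levels in these libraries, with the differences between CD244+ and CD244- cells known, so their levels and differences are a description, and nothing is read from the counts of them past a threshold. iNKT cells are T cells whose semi-invariant receptor recognises lipid antigen presented by CD1d. The sort took 100 cells per library by TCRbeta, NK1.1, CD1d tetramer and CXCR6, all positive, from mice aged 6 weeks whose strain and genotype are not given in the labels. The groups, of 3 libraries each, were lung CD244+, lung CD244-, thymus CD244+ and thymus CD244-. The CD244+ fraction is called the C2 subset by the submitters and the CD244- fraction the C1 subset. Replicates are labelled as independent library preparations and no animals are named, so the errors and p-values cover the spread between preparations alone, and that spread may be technical.

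S100 proteins carry a pair of EF-hand motifs and work mostly as dimers, which change shape on binding calcium and then grip target proteins. S100A4 binds the heavy chain of non-muscle myosin IIA and is known from motile cells, S100A6 binds the ubiquitin-ligase adaptor CacyBP, S100A11 binds annexin A1, and S100A13 takes part in the release of proteins that lack a signal peptide, such as FGF1 and IL1A. S100A10 is the member that has lost calcium binding and is held in a permanent complex with annexin A2, on which the scaffold protein AHNAK docks. In T cells, S100a4 and S100a6 RNA is best known from effector and memory cells.

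In GENCODE M21 (build GRCm38, the same assembly as the mm10 named by the submitters) all 5 genes lie on the plus strand of chromosome 3, within 3.05 Mb. S100a13 (chr3:90514435-90524581), S100a4 (chr3:90603771-90606045) and S100a6 (chr3:90612882-90624181) sit at one end, and S100a11 (chr3:93520488-93526287) and S100a10 (chr3:93555080-93564643) at the other, with a gap of 2.90 Mb between S100a6 and S100a11. The first transcript of S100a4, S100a6, S100a10 and S100a11 has 3 exons each and encodes 101, 89, 97 and 98 codons, while that of S100a13 has 4 exons and 160 codons. S100a4 shares exon sequence with the predicted gene Gm42674 on the same strand, so that reads from both cannot be told apart. The start of S100a13 is 43 bases from that of S100a1, which runs the opposite way.

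The 250 bases upstream of the RefSeq start (GRCm38.p6, plus strand, 5′ to 3′) are shown for S100a4 and S100a6, both high in CD244+ libraries of either tissue, and for S100a11, whose order of groups was another. A start was matched for 4 of the 5 genes, all but S100a10. Capitals mark matches on either strand to 4 motifs, the TATA box searched as TATAAA, the AP-1 site searched as TGANTCA, the GC box searched as GGGCGG and the CACCC box by its name. Matches to different motifs could overlap and did not in these sequences.
S100a4 (chr3:90603520-90603769): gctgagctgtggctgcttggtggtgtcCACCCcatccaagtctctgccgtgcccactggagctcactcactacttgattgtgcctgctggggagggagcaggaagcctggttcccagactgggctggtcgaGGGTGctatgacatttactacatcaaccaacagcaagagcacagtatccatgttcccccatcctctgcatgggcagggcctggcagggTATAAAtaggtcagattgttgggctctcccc
S100a6 (chr3:90612644-90612893): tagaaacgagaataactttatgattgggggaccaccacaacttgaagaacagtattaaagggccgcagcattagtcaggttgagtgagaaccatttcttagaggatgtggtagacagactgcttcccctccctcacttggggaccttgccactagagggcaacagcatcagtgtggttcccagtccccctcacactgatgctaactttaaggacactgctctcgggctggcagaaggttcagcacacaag
S100a11 (chr3:93520246-93520495): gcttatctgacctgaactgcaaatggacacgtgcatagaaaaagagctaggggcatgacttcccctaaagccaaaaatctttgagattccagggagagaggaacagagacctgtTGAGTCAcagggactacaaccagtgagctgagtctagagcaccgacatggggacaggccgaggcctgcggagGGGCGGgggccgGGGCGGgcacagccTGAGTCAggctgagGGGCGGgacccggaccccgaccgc
The S100a4 window held 1 TATAAA, at position -31 from the start, and 2 CACCC matches, the second read on the minus strand. None of the 4 motifs occurred in the S100a6 window, although S100a4 and S100a6 had the same order of groups below. The S100a11 window held 2 AP-1 and 3 GC-box matches. Among 32851 mouse promoter windows of this length, TATAAA occurred in 12.4%, TGANTCA in 6.75%, GGGCGG in 32.7% and CACCC in 52%, with 2 or more TGANTCA matches in 0.338%. These matches are letters in a window and were not tested as binding sites.

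The deposited values are scaled molecule counts, from which molecules per library were recovered. Totals were 42520 to 51436 molecules in lung CD244+, 29696 to 32196 in lung CD244-, 56615 to 71789 in thymus CD244+ and 60120 to 67478 in thymus CD244- libraries. Levels are given below as molecules per 10000 recovered molecules. Barcoded primers annealed to the poly(A) tail, so a transcript counts once whatever its length, and no length correction was made. Expression of Cd244 itself was sparse, with 2 molecules in lung CD244+, 0 in lung CD244-, 13 in thymus CD244+ and 0 in thymus CD244- libraries, and lung CD244+ replicate 3 had 0. The lung CD244+ libraries stood apart by markers of another cell type. The 14 myeloid markers, among them Apoe, C1qa, C1qb, C1qc, Lyz2 and Cd14, summed to 63.6 to 122 molecules per 10000 there, with none of the 14 at 0, against 0 to 0.673 in lung CD244-, 0.353 to 0.631 in thymus CD244+ and 0 to 0.299 in thymus CD244- libraries, where 12, 11 and 12 of the 14 were at 0. In the same lung CD244+ libraries the 11 iNKT and T cell markers (Cd3d, Cd3e, Cd3g, Zbtb16, Tbx21 and others) summed to 18.8 ± 6.44 per 10000 (SD, n = 3), none of them above 26.1, against 39.1 to 41.4 in lung CD244-, 40.5 to 45.5 in thymus CD244+ and 39.7 to 46.8 in thymus CD244- libraries. Sums of the 10 neutrophil, 5 NK cell and 5 endothelial markers stayed at or under 0.986 in every library, the 5 B cell markers were at 0 except for 1.18 in lung CD244+ replicate 2, and the 7 lung epithelial markers reached 3.37. Fewer cells of a type and less RNA per cell cannot be told apart in such pools of cells.

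S100a4 was low in CD244- libraries of both tissues. Its levels were 3.89, 2.82 and 5.83 molecules per 10000 in lung CD244+ libraries and 0, 0.663 and 1.55 in lung CD244- libraries. In thymus they were 6.16, 3.78 and 3.53 in CD244+ and 0.0370, 0.150 and 0.832 in CD244- libraries. Every CD244+ library of either tissue lay above every CD244- library, and the 2 CD244+ groups overlapped each other, as did the 2 CD244- groups. Of all genes, 5.47% had CD244+ above CD244- libraries without overlap in thymus and 11.6% in lung. The share with both at once was not counted. The counts behind the CD244- values are small: 7 molecules over the 3 lung CD244- libraries and 6.25 over the 3 thymus CD244- libraries, against 61 and 88.25 in the CD244+ libraries of lung and thymus. The lung CD244- library without a molecule allows a level of up to 1.01 per 10000 at its depth, by counting error only.

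S100a6 showed the same order of groups at higher levels. It had 7.98, 3.53 and 7.0 molecules per 10000 in lung CD244+ libraries and 2.36, 1.99 and 0.932 in lung CD244- libraries. Thymus CD244+ libraries had 7.66, 10.7 and 9.94, and thymus CD244- libraries 1.04, 0.748 and 1.54. Again all CD244+ libraries were above all CD244- libraries, with lung CD244+ replicate 2 closest to the CD244- range. Neighbouring groups overlapped in the order thymus CD244+ then lung CD244+, and lung CD244- then thymus CD244-, and did not overlap between lung CD244+ and lung CD244-. Shares of all genes with such an order are those given for S100a4.

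S100a10, the annexin A2 partner, separated the tissues and not the subsets. Lung CD244+ libraries had 7.57, 4.0 and 5.44 molecules per 10000 and lung CD244- libraries 4.38, 3.98 and 7.45. Thymus CD244+ libraries had 7.66, 11.3 and 8.88, and thymus CD244- libraries 8.45, 8.41 and 8.98. All 6 lung libraries were below all 6 thymus libraries, by a narrow margin at the top of the lung range, while CD244+ and CD244- libraries overlapped within each tissue. Of all genes, 12.1% had lung below thymus libraries without overlap in CD244+ cells and 10.2% in CD244- cells. The share with all 6 below all 6 was not counted.

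S100a11 was the one member whose 4 groups were all apart, in the order thymus CD244-, thymus CD244+, lung CD244+, lung CD244-. It had 5.32, 2.82 and 4.08 molecules per 10000 in lung CD244+ libraries and 2.36, 2.65 and 2.80 in lung CD244- libraries, so the lowest lung CD244+ value (2.82) almost met the highest lung CD244- value (2.80). In thymus the levels were 6.41, 5.83 and 6.27 in CD244+ and 7.56, 7.03 and 8.65 in CD244- libraries. The subsets therefore stood in opposite order in the 2 tissues. Pairs of groups stood apart in these directions for 11.6% (lung subsets) and 6.42% (thymus subsets) of all genes. Between tissues it was 12.1% (CD244+) and 10.2% (CD244-). The share of genes with all 4 groups apart was not counted.

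S100a13 was low throughout, at 0.706 to 1.43 molecules per 10000 in lung CD244+, 0.673 to 1.33 in lung CD244-, 0.975 to 1.41 in thymus CD244+ and 0.593 to 2.66 in thymus CD244- libraries. All neighbouring groups overlapped, and the group totals were 15, 10, 22 and 28 molecules in that order, so its levels rest on few molecules.

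**Figure D1:**
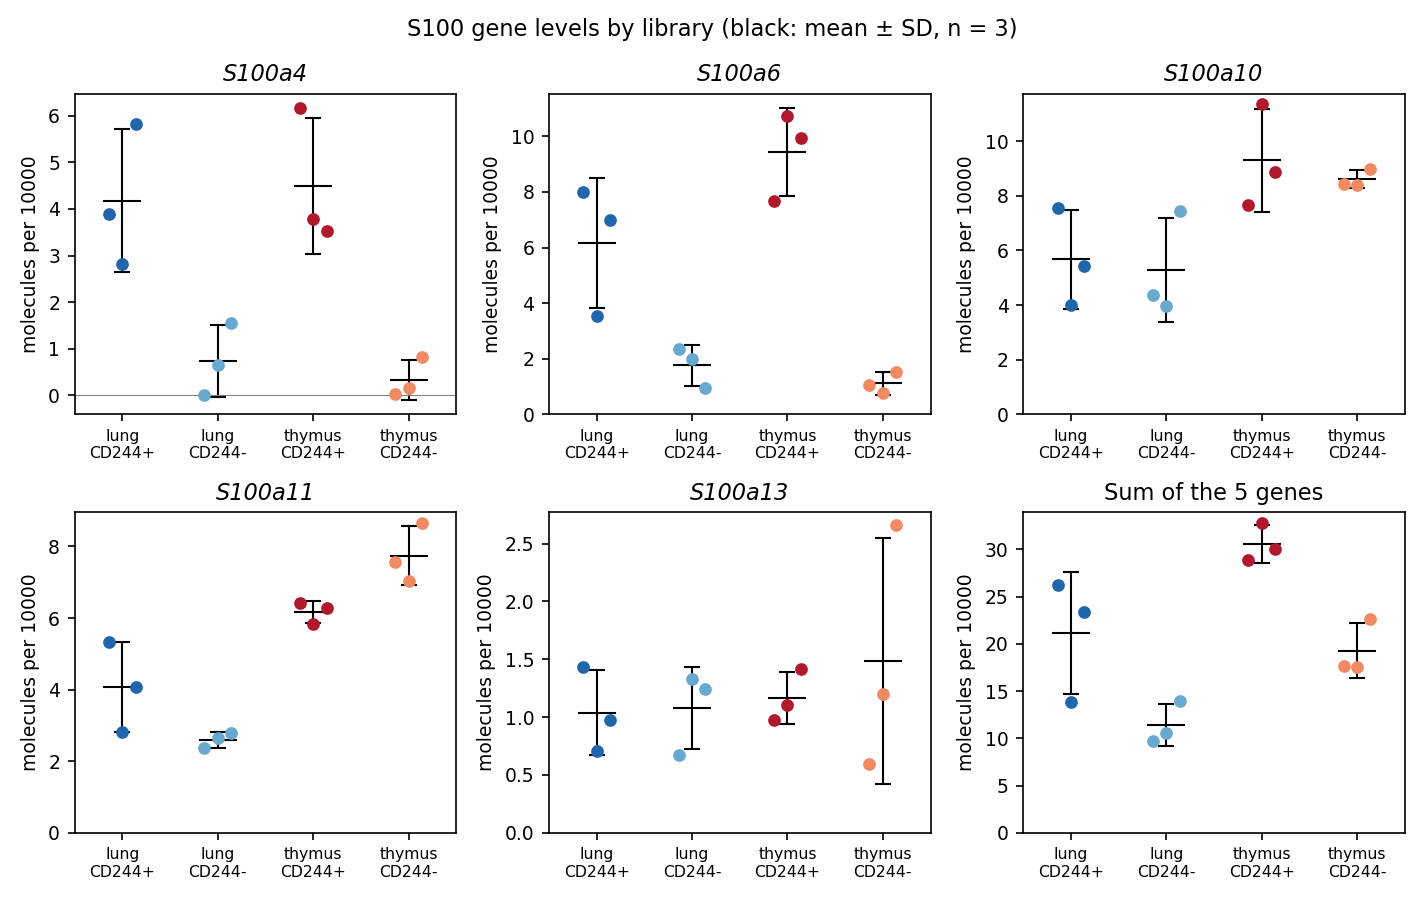
Level of each S100 gene and of their sum, in molecules per 10000 recovered molecules (linear axes that include 0), in each of the 12 libraries; points are libraries and black bars the mean ± SD (n = 3 per group). S100a4 and S100a6 are high in both CD244+ groups, S100a10 is high in both thymus groups, S100a11 falls into 4 separate groups, and S100a13 stays at or under 2.66 in every library. The share of all genes with 4 separate groups was not counted.

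Summed over the 5 genes, the family took 21.1 ± 6.45 molecules per 10000 in lung CD244+, 11.5 ± 2.23 in lung CD244-, 30.6 ± 2.01 in thymus CD244+ and 19.3 ± 2.92 in thymus CD244- libraries (SD, n = 3 each). Its make-up differed as well. S100a4 and S100a6 together made 48.7% ± 5.47 of the family's molecules in lung CD244+ and 22.3% ± 3.94 in lung CD244- libraries, and 45.7% ± 1.96 in thymus CD244+ and 7.22% ± 2.85 in thymus CD244- libraries. The share in the 2 CD244+ groups ran from 44.2% to 55% and in the 2 CD244- groups from 5.12% to 25%. Lung CD244+ replicate 2, which had the smallest sum of its group at 13.9 per 10000, had a share of 45.8%, between those of replicates 1 and 3 (45.3% and 55%). S100a11 made 19.4% ± 1.63 of the family in lung CD244+ and 23.0% ± 2.67 in lung CD244- libraries, against 20.3% ± 2.26 in thymus CD244+ and 40.3% ± 2.31 in thymus CD244- libraries. S100a10 made 27.0% and 45.2% in the CD244+ and CD244- lung groups and 30.2% and 45.1% in the CD244+ and CD244- thymus groups. Shares add to a fixed whole, so a gain of S100a4 and S100a6 lowers the share of the others.

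**Figure D2:**
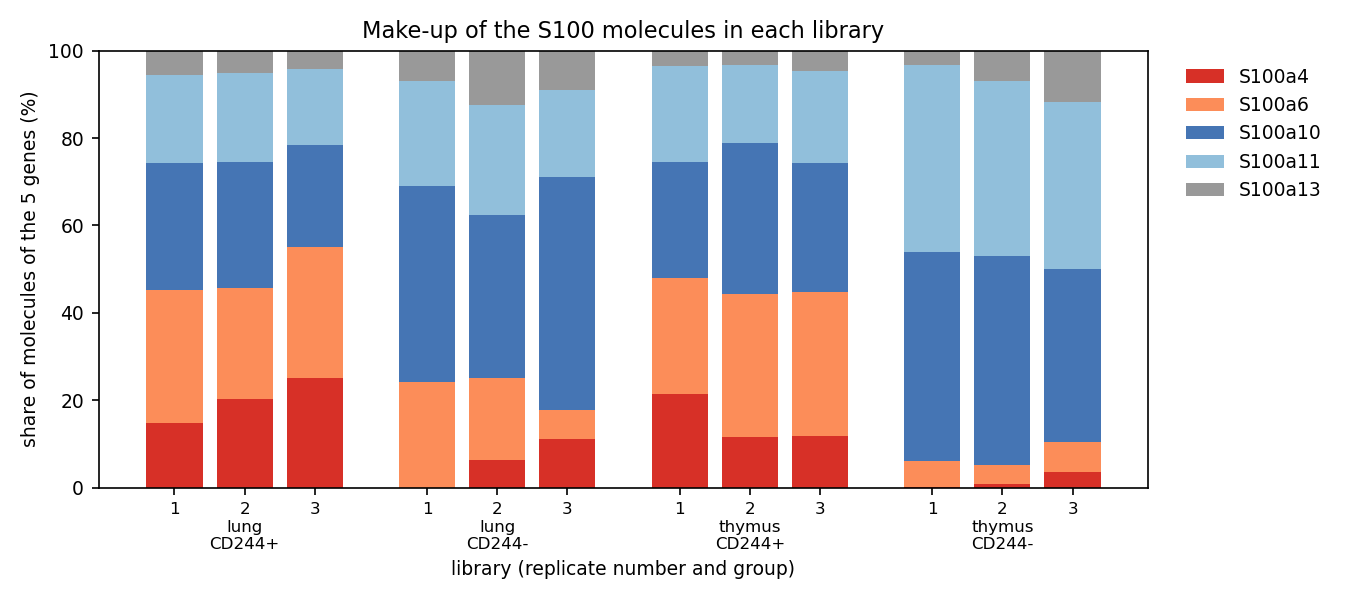
Share of each gene among the molecules of the 5 S100 genes (%, stacked to 100) in each library, ordered by group and replicate number. S100a4 and S100a6, the lowest 2 segments, fill 44.2% to 55% of the bar in CD244+ libraries and 5.12% to 25% in CD244- libraries.

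Differences between groups were fitted for all genes with limma on log2(value + 1) of the deposited values, a scale that understates the change of low genes. In thymus, CD244+ minus CD244-, S100a4 averaged 4.49 ± 1.45 molecules per 10000 in CD244+ and 0.339 ± 0.430 in CD244- libraries (SD, n = 3 each), a ratio of means of 13.2 and a log2 difference of 2.90 ± 0.38 (SE). S100a6 averaged 9.44 ± 1.59 in CD244+ and 1.11 ± 0.400 in CD244- libraries, a ratio of 8.52 and a log2 difference of 2.75 ± 0.29. Of the 5 genes, these 2 were past the threshold (Benjamini-Hochberg adjusted p of 0.05), both higher, where 0.409% of all genes tested were past it (17 higher and 4 lower) with 0.331% higher, and 5.47% of all genes had CD244+ libraries above CD244- libraries without overlap, as these 2 did; as the genes were chosen with this contrast known, nothing is read from that. Log2 differences were 0.09 ± 0.22 for S100a10 and -0.12 ± 0.38 for S100a13. For S100a11 it was -0.31 ± 0.24, with the CD244+ libraries below the CD244- libraries without overlap, as for 6.42% of all genes.

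In lung, CD244+ minus CD244-, S100a4 averaged 4.18 ± 1.53 molecules per 10000 in CD244+ and 0.739 ± 0.779 in CD244- libraries, a ratio of 5.66 and a log2 difference of 2.07 ± 0.38. S100a6 averaged 6.17 ± 2.34 in CD244+ and 1.76 ± 0.740 in CD244- libraries, a ratio of 3.51 and a log2 difference of 1.54 ± 0.29. These 2 were again the members past the threshold, where 8.43% of all genes were past it and 5.61% were past it and higher. With values scaled to the CD3 chain genes, S100a10 (0.97) and S100a11 (1.38) were past it as well, where 1350 of 5854 genes were. With edgeR, S100a11 (1.01) was past it too, where 173 of 1154 genes were. S100a11 differed by 0.52 ± 0.24, and like S100a4 and S100a6 its CD244+ libraries were above its CD244- libraries without overlap, as for 11.6% of all genes. S100a10 and S100a13 differed by 0.10 ± 0.22 and -0.04 ± 0.38.

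The marker sums moved with the lung CD244+ group in this comparison, the myeloid sum being 95.6 ± 29.6 molecules per 10000 in lung CD244+ and 0.224 ± 0.389 in lung CD244- libraries (SD, n = 3 each). Of 10 T cell markers tested, 4 were lower in lung CD244+ than in lung CD244- libraries (limma adjusted p under the threshold). Of all genes, 8.43% were past it, higher or lower. With edgeR 2 of 7 T cell markers were past it, where 173 of 1154 genes were. Myeloid sums of lung CD244+ replicates 1, 2 and 3 were 63.6, 122 and 101, beside 3.89, 2.82 and 5.83 for S100a4 and 7.98, 3.53 and 7.0 for S100a6. With replicate 1 as the only library of its group, S100a4 and S100a6 differed between lung CD244+ and lung CD244- by 2.03 and 1.96 on the log2 scale, against 2.07 and 1.54 with all 3. What part the other cells' RNA had in the lung values was not tested.

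**Figure D3:**
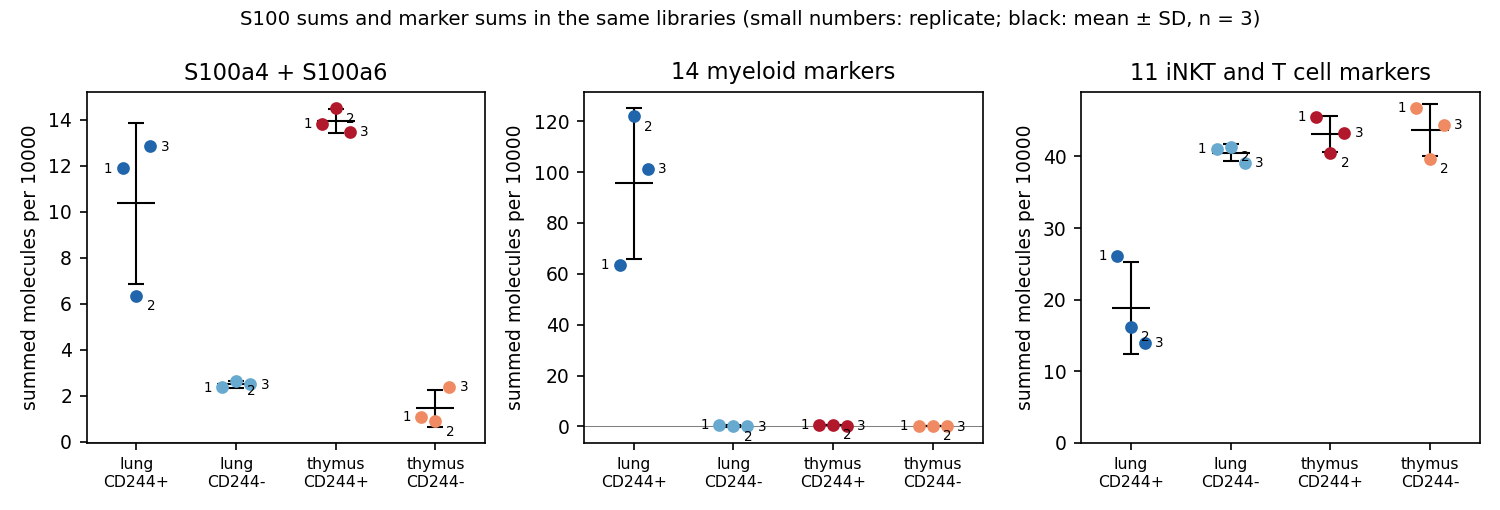
Summed molecules per 10000 of S100a4 and S100a6 (left), of 14 myeloid markers (middle) and of 11 iNKT and T cell markers (right) in the same 12 libraries; points are libraries with their replicate number, black bars the mean ± SD (n = 3). The S100 pair is high in both CD244+ groups, the myeloid sum is high in the lung CD244+ group at 63.6 to 122 and at most 0.673 elsewhere, and the T cell sum is lowest in the lung CD244+ group.

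Between tissues, S100a10 and S100a11 were lower in lung in both subsets. Means and ratios here are per 10000 molecules, while log2 differences come from the deposited values. In those values each thymus library has 1.39 times the total of each lung library, which lowers lung minus thymus differences. In CD244- cells, where the myeloid sum was at most 0.673 in either tissue, S100a11 averaged 2.60 ± 0.224 molecules per 10000 in lung and 7.75 ± 0.826 in thymus (SD, n = 3 each), a ratio of 0.336 and a log2 difference, lung minus thymus, of -1.85 ± 0.24. S100a10 averaged 5.27 ± 1.90 in lung and 8.61 ± 0.319 in thymus, a ratio of 0.612 and a log2 difference of -1.16 ± 0.22. These 2 were past the threshold and lower in lung, where 10.7% of all genes were past it and 8.52% past it and lower; their libraries did not overlap between tissues, as for 10.2% of all genes in that direction. S100a4, S100a6 and S100a13 differed by 0.29 ± 0.38, 0.12 ± 0.29 and -0.56 ± 0.38.

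In CD244+ cells, S100a11 averaged 4.08 ± 1.25 molecules per 10000 in lung and 6.17 ± 0.300 in thymus, with a log2 difference of -1.02 ± 0.24. S100a10 averaged 5.67 ± 1.80 in lung and 9.30 ± 1.88 in thymus, with a log2 difference of -1.14 ± 0.22. S100a6, whose libraries overlapped between tissues on the per-10000 scale, differed by -1.09 ± 0.29. These 3 were past the threshold, where 14.9% of all genes were past it and 9.61% past it and lower, and S100a4 and S100a13 differed by -0.54 ± 0.38 and -0.47 ± 0.38. Groups of S100a10 and S100a11 did not overlap, as for 12.1% of all genes in that direction. Markers moved with this comparison too: the myeloid sum was 95.6 ± 29.6 in lung and 0.514 ± 0.144 in thymus CD244+ libraries. By limma with the authors' scaling, 8 of 10 T cell markers were lower in lung. With edgeR 2 of 7 T cell markers were past the threshold, where 294 of 1154 genes were. What part the RNA behind these markers had in the S100 differences was not tested.

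The tissue differences depend on scaling, because the authors' table gives each thymus library 1.39 times the total of each lung library. The median log2 difference of all genes, lung minus thymus, was -0.27 in CD244+ and -0.29 in CD244- cells, and with a common total 0.00 and -0.03. All genes past the threshold split into 271 higher and 494 lower in CD244+ cells and 112 higher and 438 lower in CD244- cells with the authors' scaling, and into 362 higher and 206 lower and 161 higher and 150 lower with a common total. With a common total, S100a10 differed by -0.70 in CD244+ and -0.71 in CD244- cells and S100a11 by -1.43 in CD244- cells, all past the threshold, while S100a11 and S100a6 in CD244+ cells (-0.59 and -0.64) were not. Scaled to the CD3 chain genes, the CD244+ differences of S100a6, S100a10 and S100a11 turned positive (0.41, 0.35 and 0.43) and none was past the threshold. In CD244- cells S100a11 (-1.11) was past it and S100a10 (-0.39) no longer was. With that scaling 1572 of 5854 genes were past it in CD244+ cells and 146 in CD244- cells.

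**Figure D4:**
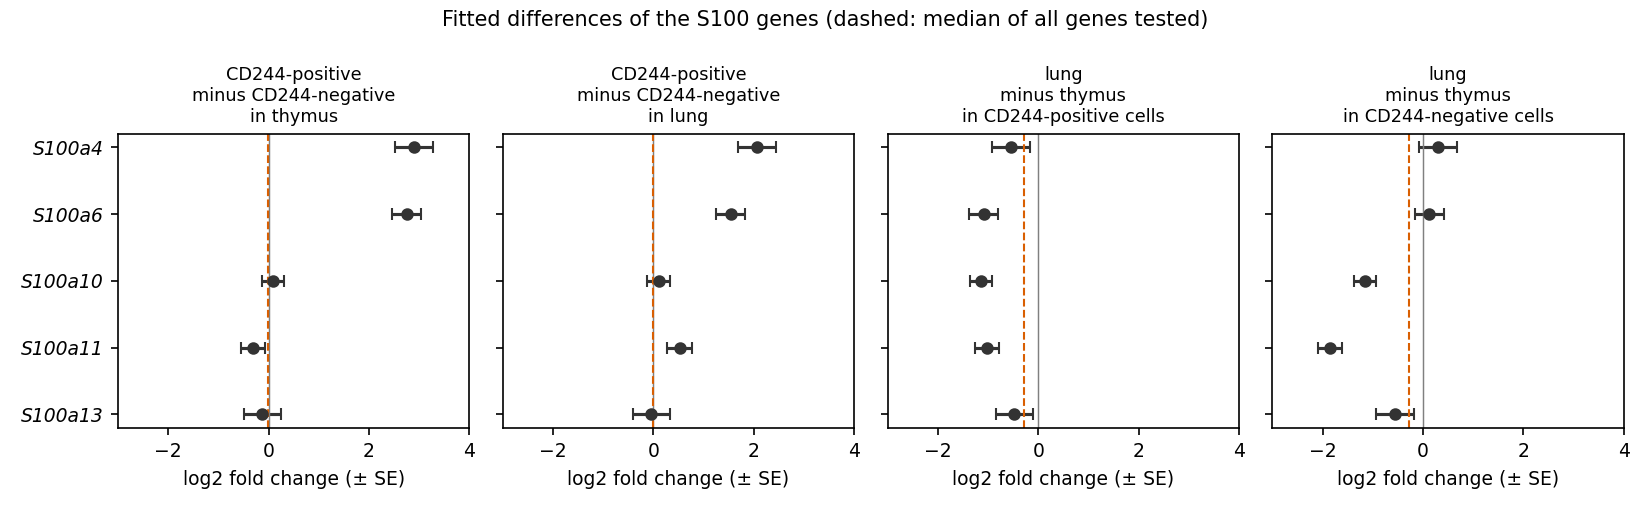
Log2 difference (± SE) of each S100 gene in 4 comparisons, from the fit on log2(value + 1) with the authors' scaling; the solid line marks 0 and the dashed line the median of the 5138 genes tested. S100a4 and S100a6 stand at 1.54 to 2.90 in both CD244 comparisons, and S100a10 and S100a11 at -1.02 to -1.85 in both tissue comparisons, where the median of all genes is -0.27 and -0.29; scaling to the CD3 chain genes turns S100a6, S100a10 and S100a11 positive in the CD244+ tissue comparison.

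The difference between subsets was also compared between tissues, as the CD244 effect in lung minus that in thymus, which uses the same libraries as the comparisons above. It was -0.83 ± 0.54 for S100a4, -1.21 ± 0.41 for S100a6, 0.02 ± 0.32 for S100a10, 0.83 ± 0.34 for S100a11 and 0.08 ± 0.53 for S100a13 (log2, SE). By limma 0 of the 5 genes were past the threshold, where 3.27% of all genes were, with 2 of the 5 at an unadjusted p under 0.05 (S100a6 and S100a11); with edgeR it was 0 of the 4 genes fitted. S100a6 was past the threshold with a pseudocount of 5 (-0.94) and without lung CD244- replicate 3 (-1.50), and S100a11 with scaling to the CD3 chain genes (1.54). In these settings 196 of 5138, 149 of 4964 and 335 of 5854 genes were past it.

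The rest of the family was nearly silent. Of 12 other S100 genes in the table, 10 had 0 molecules in all 12 libraries, among them S100a8 and S100a9, the calprotectin subunits of neutrophils and monocytes, and S100b. Over all 621158 molecules a count of 0 allows a level of up to 0.0483 per 10000, by counting error only. Within a single group it allows more, up to 0.210 in lung CD244+, 0.326 in lung CD244-, 0.156 in thymus CD244+ and 0.154 in thymus CD244- libraries. S100a1 had 4 molecules and S100a3 had 1, all in lung CD244+ libraries, and none of the 12 genes was tested. S100a1, S100a2, S100a3, S100a5, S100a7a, S100a8, S100a9, S100a14 and S100a16 start within 100 kb of S100a4, next to expressed members of the family. Among 23 annotated neighbours within 100 kb of a member that are no S100 gene, 3 were tested, Chtop, Ilf2 and Snapin. Their log2 differences, CD244+ minus CD244-, were -0.47 ± 0.37, -0.05 ± 0.40 and 0.24 ± 0.40 in thymus, and their smallest unadjusted p over the 5 comparisons was 0.162 by limma (Snapin, lung minus thymus in CD244- cells).

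Genes for proteins that S100 proteins bind were read from a list of 21, of which 13 were tested. The list was chosen with earlier results of these data known, so its counts are a description. In thymus the median log2 difference was 0.24 beside -0.02 for all genes. There 1 of 13 was higher in CD244+ than CD244- libraries and none lower, where 0.409% of all genes were past the threshold. That gene was Ahnak, the scaffold that docks on the S100A10 and annexin A2 complex, with 270.25 molecules in CD244+ and 106.25 in CD244- libraries and a log2 difference of 1.36 ± 0.20 (limma adjusted p = 1.92e-06). Anxa2 itself had 37 and 19 molecules in thymus CD244+ and CD244- libraries and 0.77 ± 0.35 (adjusted p = 0.789). In lung 3 of 13 were higher in CD244+ than CD244- libraries and none lower, where 8.43% of all genes were past the threshold. The median of the 13 was 0.46 beside -0.01. Anxa2 had 63 molecules in lung CD244+ and 12 in lung CD244- libraries, with a log2 difference of 1.53 ± 0.35 (limma adjusted p = 0.000801), and did not pass with lung CD244+ replicate 1 alone (0.85, adjusted p = 0.0934). Il1a, a cytokine released without a signal peptide, had 11 molecules in lung CD244+ and 0 in lung CD244- libraries. It passed the filter on low values only through the lung CD244+ group, where it is high, so its call is given no weight. Iqgap1, a cytoskeletal scaffold, differed by 0.82 ± 0.26 (adjusted p = 0.0330, limma). It did not pass without any 1 of the 3 lung CD244+ libraries or without lung CD244- replicate 1, where the largest adjusted p was 0.219. It also failed with no filter, with only the libraries compared and with thinned molecules. These lung differences stand beside the myeloid sum described above, and its part in them was not tested.

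The myosin heavy chain bound by S100A4, Myh9, did not follow S100a4. Its log2 difference, CD244+ minus CD244-, was 0.35 ± 0.23 in thymus and -0.50 ± 0.23 in lung (limma adjusted p = 0.978 and 0.181). Cacybp, the S100A6 partner, differed by 0.24 ± 0.41 and 0.30 ± 0.41 (adjusted p = 1 and 0.757), and Anxa1, the S100A11 partner, by 0.06 ± 0.42 and 0.46 ± 0.42 (adjusted p = 1 and 0.601), with 5 to 15 molecules per group. Between tissues in CD244+ cells 3 of 13 passed, where 14.9% of all genes did, with a median of -0.35 beside -0.27. Myh9 (-0.80 ± 0.23, limma adjusted p = 0.00650) and Ahnak (-0.63 ± 0.20, adjusted p = 0.0213) were lower in lung. Il1a, which passed the filter through its high group alone, was called higher (11 molecules in lung and 0 in thymus). The Myh9 and Ahnak calls were lost with a common total, quantile normalization, thinned molecules and edgeR. Their differences turned positive when scaled to the CD3 chain genes (0.68 and 0.90). Myh9 also failed without thymus CD244+ replicate 2 (adjusted p = 0.0690) and Ahnak without thymus CD244+ replicates 1 or 3 or lung CD244+ replicate 3 (largest 0.138). In CD244- cells 0 of 13 passed by limma, where 10.7% of all genes did, with 2 at an unadjusted p under 0.05. With edgeR 1 of 6 passed there (Ahnak, 0.99, higher in lung), where 213 of 1154 genes did. For the difference of the CD244 effects 0 of 13 passed by limma, where 3.27% of all genes did. For that difference 3 had an unadjusted limma p under 0.05, and 0 of 6 passed with edgeR.

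Genes for other proteins with EF hands were read from a list that was chosen with earlier results of these data known. Of 36 listed, 30 were tested, with a median in thymus of 0.08 beside -0.02. There 1 was higher in CD244+ than CD244- libraries and none lower, where 0.409% of all genes were past the threshold. It was Efhd2, an actin-associated EF-hand protein, with 124 molecules in CD244+ and 51 in CD244- libraries (1.12 ± 0.28, limma adjusted p = 0.0305). That call failed in 5 of the 12 fits that left out 1 library, with an adjusted p of up to 0.498. Those were without thymus CD244+ replicates 1 or 2 or any 1 of the thymus CD244- libraries. The call held in 5 of 13 other settings, the main fit among them. It failed with no filter, a pseudocount of 0.5, a replicate block, a common total, quantile normalization, thinned molecules, CD3 scaling and edgeR. In lung the median was 0.28 beside -0.01. There 4 of 30 were higher in CD244+ than CD244- libraries and none lower, where 8.43% of all genes were past the threshold. Among them were Aif1, a macrophage protein, with 17 molecules in lung CD244+ and 0 in lung CD244- libraries, Efhd2 (1.03 ± 0.28, adjusted p = 0.00648) and the actin crosslinker Actn1 (1.21 ± 0.40, adjusted p = 0.0364), by limma. Aif1 passed the filter on low values only through the lung CD244+ group, where it is high, so its calls here and below are given no weight. Efhd2 failed without lung CD244+ replicate 2 or lung CD244- replicate 2 (largest adjusted p 0.0749), and also with thinned molecules. Actn1, with 11 molecules in lung CD244+ and 0 in lung CD244- libraries, failed without lung CD244+ replicates 1 or 3 or any 1 of the lung CD244- libraries (largest 0.247). Actn1 passed the filter on low values only through CD244+ libraries, where it is high, so its call is given no weight.

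Between tissues, Aif1 was higher and Efhd2 and the actin bundler Lcp1 lower in lung than in thymus CD244+ cells. These were 3 of 30, where 14.9% of all genes were past the threshold. The median of the list was -0.27, as for all genes. Aif1 had 17 molecules in lung and 0 in thymus, Efhd2 differed by -0.81 ± 0.28 (limma adjusted p = 0.0322) and Lcp1 by -0.61 ± 0.21 (adjusted p = 0.0383). In CD244- cells 3 of 30 were lower in lung, where 10.7% of all genes were past the threshold. Among the 3 were Lcp1 (-1.01 ± 0.21, limma adjusted p = 0.000260) and the myosin light chain gene Myl12a (-1.21 ± 0.28, adjusted p = 0.00127). The median of the list was -0.34 beside -0.29. The Efhd2 and Lcp1 calls in CD244+ cells were lost with a common total, as were the 3 calls in CD244- cells. With 1 library left out, Efhd2 failed without thymus CD244+ replicates 1 or 2 or lung CD244+ replicates 1 or 3 (largest adjusted p 0.214), and Lcp1 in CD244+ cells without any 1 of the thymus CD244+ libraries or lung CD244+ replicates 2 or 3 (0.152). Efhd2 in CD244+ cells turned positive when scaled to the CD3 chain genes (0.67), as did Lcp1 there (0.91).

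Genes whose profile over the 12 libraries was most like each member were ranked by the root mean square difference of mean-centred log2(value + 1), which all share the libraries and their scaling; the value for a flat gene is about the member's own SD. For S100a4 (SD 1.39) they were Fcer1g, an immunoreceptor signalling chain that myeloid cells also use (0.664), the integrin alpha 4 gene Itga4 (0.743) and the interferon-induced Ifitm2 (0.759), and S100a6 stood at 0.768. For S100a6 (SD 1.20) they were Ifitm2 (0.564) and the Ly49 receptor genes Klra7 (0.584) and Klra1 (0.651), members of a family of near-identical genes whose reads may be split uncertainly. Ifitm2 averaged 1.30 molecules per 10000 in lung CD244+, 0 in lung CD244-, 0.783 in thymus CD244+ and 0 in thymus CD244- libraries. It passed the filter on low values only through the CD244+ groups, where it is high, so its likeness to S100a4 and S100a6 is given no weight. Itga4 averaged 2.37 in lung CD244+, 0.207 in lung CD244-, 1.17 in thymus CD244+ and 0.161 in thymus CD244- libraries. At these levels Itga4 also passed the filter through its high CD244+ groups, so its likeness to S100a4 is given no weight. S100a10 (SD 0.639) was most like the actin regulator Coro1a (0.230), the calcineurin subunit gene Ppp3cb (0.232) and Gstp1 (0.237), with S100a11 at 0.330. S100a11 (SD 0.772) was most like the Sm protein gene Snrpf (0.184), Rps28 (0.239) and Ifi209 (0.240). S100a13 (SD 0.479) was most like Trappc6b (0.252), Irf7 (0.271) and 1110004F10Rik (0.286). S100a4 or S100a6 stood 1.20 to 1.51 from S100a10 or S100a11.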

How the data were processed

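RNA was measured in 12 libraries of 100 sorted cells. Per the labels' protocols, the reverse transcription primer carried oligo-dT and a molecular barcode, cDNA was joined to a common sequence by template switching and amplified by PCR, and ERCC spike-in RNA was added to each tube. Per the submitters' processing notes, STAR was the aligner, with no version, and mm10 the build; the counting, annotation and scaling steps are not given in the sources used here. The deposited table holds, per gene and library, a signal made by the authors: molecule counts multiplied by 1 constant per library, with 94.3% to 95.9% of nonzero values whole multiples of 1 molecule (tolerance 1e-06), 24781 genes and 0 ERCC rows. The planned scale of normalized values was used because these are not raw counts. Molecules were recovered by dividing by that constant. Thymus columns each summed to 26890.5 and lung columns to 19342.9 units.

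Genes above 1 unit in at least 3 libraries (5138) were fitted in 1 limma 3.58.1 model (R 4.3.3, trend and robust options) of log2(value + 1) with 4 group means and 5 comparisons, Benjamini-Hochberg adjusted over all genes, two-sided, threshold 0.05. Exact tests on 3 against 3 libraries reach no p under 0.1 and were not used. The test was tried on simulated data. Alternatives were no filter, a stricter filter (5 units), pseudocounts of 0.5 and 5, a common total, quantile normalization, thinned molecules, a replicate block, only the libraries compared, each library left out, and edgeR 4.0.16 (quasi-likelihood, TMM) after rounding recovered molecules, in the 9 libraries where whole molecules could be checked. 2 further settings were chosen after seeing the data: lung CD244+ replicate 1 as the only library of its group, and scaling to the CD3 chain genes Cd3d, Cd3e, Cd3g and Cd247. Samples were grouped by the labels. The 5 S100 genes and all lists were chosen with earlier results of these data known. Besides these 5, the text names up to 3 genes per list and comparison with the smallest p past the threshold, the 3 genes most like each S100 gene, and neighbours within 100 kb; Actn1, Myh9, Cacybp, Anxa1 and Anxa2 values outside that rule were chosen after their values were seen, and 1 gene of the EF-hand list is not reported here. Intervals on counts of 0 (3 molecules) cover counting error only. No animals are named, so whether equal replicate numbers pair libraries is not known. Correlations of deviations between equal numbers were -0.0284 to 0.0157, which cannot settle it because most genes have few molecules.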

Additional observations from a re-analysis of the deposited data

Results flagged for a closer look

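The subsets stood in opposite order for S100a11 in the 2 tissues, and neither difference was past the threshold. Every lung CD244+ library was above every lung CD244- library, as for 11.6% of all genes. The nearest lung values were 2.82 and 2.80 molecules per 10000, so that order rests on a small gap (limma adjusted p = 0.207). Every thymus CD244+ library was below every thymus CD244- library, as for 6.42% of all genes. The CD244 effect in lung minus that in thymus was 0.83 ± 0.34 on the log2 scale (SE) and was not past the threshold in the limma fit. S100a11 was chosen with its values known, so this is a description. The myeloid marker sum, at 63.6 to 122 molecules per 10000 in lung CD244+ libraries, moved with the lung difference, and its part in it was not tested.

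Aif1, from the list of other EF-hand proteins, had a CD244 effect in lung minus that in thymus of 1.83 ± 0.55 (log2, SE) and was past the threshold by limma. It had 17 molecules in lung CD244+, 0 in lung CD244-, 0 in thymus CD244+ and 1 in thymus CD244- libraries. It passed the filter on low values only through the lung CD244+ group, where it is high, and the call was lost in all 9 leave-one-out fits in which the gene was tested, so the call is given no weight.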

How the results depend on the processing

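In every setting run, S100a4 and S100a6 were higher in CD244+ than CD244- libraries and past the threshold in both tissues; they were chosen with this difference known, so this is no sign of stability. With each library left out in turn, members past the threshold numbered 2 to 2 in thymus, 2 to 2 in lung, 2 to 3 for lung minus thymus in CD244+ cells (S100a6 was lost without lung CD244+ replicate 2, -0.76), 2 to 2 in CD244- cells and 0 to 1 for the difference of CD244 effects (S100a6 without lung CD244- replicate 3). All genes past the threshold ranged from 10 to 22 (thymus; 10 without thymus CD244- replicate 2), 179 to 423 (lung; 179 without lung CD244+ replicate 3 and 203 without replicate 2), 473 to 799, 387 to 568 and 48 to 152 (48 without lung CD244+ replicate 3) in the same order of comparisons.

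Other settings moved these counts. For CD244+ minus CD244- in thymus (21), they were 13 with thinned molecules, 8 with CD3 scaling (8 higher, 0 lower) and 12 with edgeR. In lung (433), they were 250 with the stricter filter (115 higher, 135 lower), 287 thinned, 60 with lung CD244+ replicate 1 alone, 1350 with CD3 scaling (1320 higher, 30 lower) and 173 with edgeR. For lung minus thymus in CD244+ cells (765), they were 453 with the stricter filter, 434 thinned, 258 with replicate 1 alone, 1572 with CD3 scaling (1554 higher, 18 lower), and 294 with edgeR. In CD244- cells (550), they were 311 with a common total, 295 quantile-normalized (161 higher, 134 lower; in CD244+ cells 336 higher, 252 lower), 189 thinned, 146 with CD3 scaling (123 higher, 23 lower), and 213 with edgeR. For the difference of CD244 effects (168), they were 104 with the stricter filter, 107 thinned, 16 with replicate 1 alone, 335 with CD3 scaling (332 higher, 3 lower), and 20 with edgeR. Members past the threshold became 4 with CD3 scaling and 3 with edgeR in lung (2 reported); 1 with a common total, 1 thinned and 0 with replicate 1 alone, CD3 scaling or edgeR for lung minus thymus in CD244+ cells (3 reported); 1 with CD3 scaling in CD244- cells (2 reported); and 1 with a pseudocount of 5 or CD3 scaling for the difference of effects (0 reported). CD3 scaling reversed S100a6 (0.41), S100a10 (0.35) and S100a11 (0.43) for lung minus thymus in CD244+ cells. It divides by genes that were themselves lower in lung CD244+ libraries; otherwise the cause was not tested. The edgeR fit (1154 genes) and the stricter filter (922) test fewer genes than the main fit (5138), and edgeR fewer libraries. CD3 scaling tested 5854 genes, a common total 5199 and thinned molecules 4885. With a common total 568 of all genes passed for lung minus thymus in CD244+ cells. With a pseudocount of 5, 196 passed for the difference of effects. The 5 members were chosen with their values known, so nothing is read from the member counts.

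With the replicate number as a block, 19, 428, 750, 525 and 161 genes passed in the order above, and no member's call changed. Whether the numbers pair the libraries is not known. S100a13 was under the stricter and edgeR filters and has no value there. Lung CD244- libraries, at 29696 to 32196 molecules, limit what can be said of S100a4 and S100a13.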
